A study of Homo sapiens with 8 samples.

Results

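The 45 genes described here encode the proteins of the large (60S) subunit of the human cytosolic ribosome. They were chosen as a list of gene symbols, without their pseudogenes, and each symbol was matched to its Ensembl gene identifier through GENCODE 44. All 45 of 45 were found among the 58735 genes of the files, and all 45 were among the 18242 genes that passed the filter on low counts. The filter kept genes for which 2 or more of the 8 libraries held 10 counts or more after rounding.

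BEAS-2B is an established, immortalized line of human bronchial epithelial cells. Cultures on inserts, with the medium above the cells removed before exposure, were exposed at the air-liquid interface for 2 h to clean air (CA, 0 ppm formaldehyde) or to air with 1 ppm formaldehyde (FA), and every culture then had 6 h to recover in new medium. Total RNA was depleted of ribosomal RNA and sequenced as input (CA_IN and FA_IN), and a portion of the same RNA was sequenced after immunoprecipitation with an antibody against 8-oxo-7,8-dihydroguanosine (8-oxoG), an oxidized guanine (CA_IP and FA_IP). Each of the 4 groups held 2 libraries, described by the submitters as biological duplicates, and the antibody clone is given differently in separate labels. All values therefore come from 1 cell line, 1 dose and 1 recovery time, and the immunoprecipitated fraction was compared with its own input, not with a mock precipitation.

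Cytosolic ribosomes are assembled from a small subunit, which reads the mRNA, and a large subunit, which forms the peptide bonds and passes the growing chain through its exit tunnel. The proteins are needed in matched amounts, and their mRNAs are short, abundant and translated under common control. Most of them begin with a C followed by an unbroken run of C and T bases, the 5′ terminal oligopyrimidine (TOP) start, through which growth signals acting by mTOR and LARP1 set their translation.

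The starts of 9 members that hold such a run are shown first, because this feature is what the mRNAs of the family are known to share. They were picked for having the run, and members without a run or a window are not shown. Each line holds 5 bases before and 25 bases from the RefSeq start site (GRCh38.p14), 5′ to 3′, with the C and T run in capitals. The windows of RPL39, RPL38, RPL35A, RPLP1 and RPL41, all lower in the pull-downs, come before those of RPL36A, RPL35, RPL10 and RPL7A, which were not called.
RPL39, chrX:119791606-119791635, minus strand: agcttCCCTCCTCTTCCTTTCTCCgccatc
RPL38, chr17:74203673-74203702, plus strand: tcgttCTTTTTCgtccttttccccggttgc
RPL35A, chr3:197950185-197950214, plus strand: tcgtcCTTCTCTTaccgccatcttggctcc
RPLP1, chr15:69452813-69452842, plus strand: gagagCCCCTTTCCTCagctgccgccaagg
RPL41, chr12:56116628-56116657, plus strand: cctttCTCTCggccttagcgccattttttt
RPL36A, chrX:101391006-101391035, plus strand: ggtttCTTTCTTTCCgcgccgatagcgctc
RPL35, chr9:124861933-124861962, minus strand: acttcCTCTTTCCCTCggagcgggcggcgg
RPL10, chrX:154398372-154398401, plus strand: agcgcCTCTTTCCCTTCggtgtggtgagta
RPL7A, chr9:133348213-133348242, plus strand: ctttcCTTTCTCTCTCCTCCCgccgcccaa

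A start with C and at least 5 C or T bases in all was found, on the gene's own strand only, in 28 of the 38 members that have a window (73.7%), against 1404 of all 27305 symbols (5.14%). Such a start was present in 16 of the 19 members with a window that were called lower in the pull-downs and in 12 of the 19 that were not called. The run was long in members of both kinds, with 19 bases in RPL39 and 16 in RPL7A. A match to these letters describes the window only.

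In input RNA the 45 mRNAs together took 3.90% and 3.97% of the expected counts of the CA_IN libraries and 4.13% and 4.27% of the FA_IN libraries. They took 3.47% and 3.82% of the CA_IP libraries and 3.76% and 4.04% of the FA_IP libraries. The FA_IN libraries lay above the CA_IN libraries without overlap, while the CA_IP and FA_IP libraries overlapped. The libraries held 26.2 to 45.1 M expected counts in input and 16.9 to 23.7 M after immunoprecipitation. The members were counted deeply, so the number of libraries, not the depth, limits the precision of their values: RPL28, the least abundant, reached 4423 counts in its deepest library and RPLP0 reached 105451.

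Levels of single members were compared in TPM, RSEM's measure of transcript abundance corrected for length and library size, in the CA_IN libraries. They ranged over 20.3-fold, with a median of 663 TPM. RPL37A, RPL41, RPL10 and RPL26 were highest, with 1558 and 1494 TPM for RPL37A, 1466 and 1470 TPM for RPL41, 1275 and 1252 TPM for RPL10, and 1217 and 1295 TPM for RPL26. RPLP1, RPL22 and RPL28 were lowest, with 233 and 193 TPM for RPLP1, 207 and 208 TPM for RPL22, and 85.2 and 65.1 TPM for RPL28. In the order of all 45 mean levels, the libraries of 24 of the 44 neighbouring pairs overlapped, so those neighbours did not differ beyond their spread. The TPM of a gene depends on the isoform lengths to which its reads were assigned.

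The comparison of immunoprecipitated RNA with input asks which mRNAs were recovered more or less than others by the 8-oxoG antibody. Values are CPM, counts scaled to the effective library size after TMM normalization in edgeR, with log2 fold changes (log2FC) from edgeR's quasi-likelihood test and p-values adjusted over all genes. In clean air, 22 of the 45 members were lower in CA_IP than in CA_IN at an adjusted p under 0.05, where 1.77% of all genes were called lower. None of the members was called higher (0, with 0.148% of all genes), and 23 were not called. After formaldehyde, 22 members were again lower in FA_IP than in FA_IN (1.47% of all genes) and 0 were higher (0.0329% of all genes). The 22 were the same genes in both treatments. The median log2FC of the members was −0.47 in clean air and −0.46 after formaldehyde, against 0.02 and 0.00 for all genes tested, and 14 and 12 members had a log2FC above 0, against 52.4% and 50.7% of all genes. After formaldehyde, the number of members above 0 was 6 without FA_IP replicate 2, 15 without FA_IP replicate 1 and 16 with scaling to library size. In clean air that number was 10 without CA_IP replicate 2 and 16 with scaling to library size. In each treatment 9 members were called with at least a 2-fold difference. Both CA_IP libraries lay below both CA_IN libraries for 29 members (18.1% of all genes) and both FA_IP libraries below both FA_IN libraries for 30 (18.5%).

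The size of the difference varied widely within the family. The range ran from −2.04 (RPL39) to 0.37 (RPL7A) in clean air and from −1.78 (RPL39) to 0.30 (RPL3) after formaldehyde, with standard errors of 0.07 to 0.14. The treatments share no libraries in these comparisons, and the members took nearly the same order in both (Spearman rho 0.993 across the 45 members, which are not independent replicates). The smallest difference called was that of RPL27, a log2FC of −0.50 in each treatment, and the nearest member not called was RPL17, with −0.47 in clean air (edgeR, adjusted p = 0.0534) and −0.46 after formaldehyde (adjusted p = 0.0720).

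**Figure D1:**
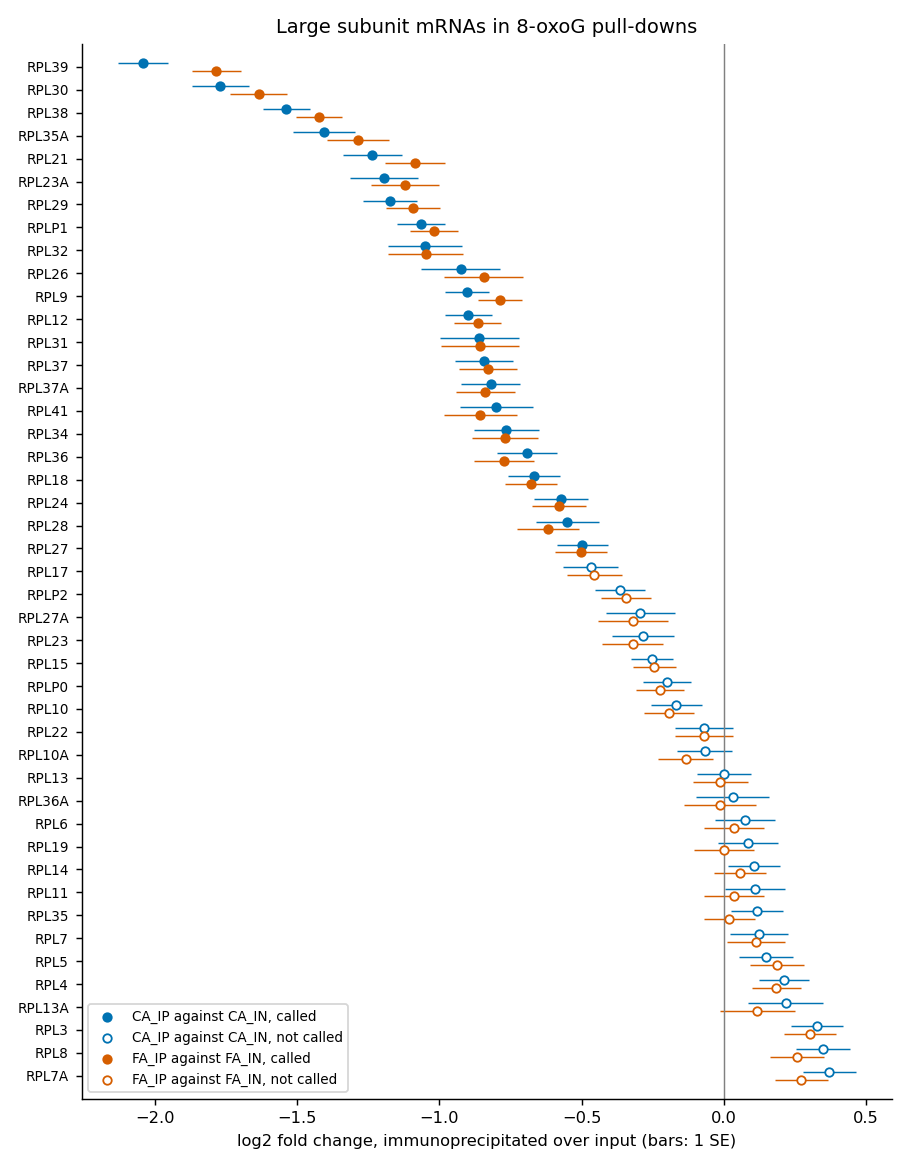
The log2 fold change of each of the 45 members (rows) in immunoprecipitated over input RNA, for clean air in blue and formaldehyde in orange, with bars of 1 standard error and filled points for members called at an adjusted p under 0.05. The 22 called members fill the upper rows in both treatments, from RPL39 to RPL27, and the colours lie close together throughout.

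The model above treats all libraries as independent. Input and immunoprecipitated RNA were split from 1 pool, and with the pool as a block, 28 members were lower and 5 were higher in each treatment. In that model 5.85% of all genes were lower and 11.6% higher in clean air, and 4.60% and 5.45% after formaldehyde. The members called higher with the block were RPL3, RPL4, RPL7A, RPL8 and RPL13A in clean air, and RPL3, RPL4, RPL5, RPL7A and RPL8 after formaldehyde. Scaling to library size in place of TMM raised the median of all genes to 0.16 and 0.17. The split of the members was then 21 lower and 4 higher in clean air and 20 lower and 3 higher after formaldehyde. The word "lower" is therefore relative to the other RNAs of the same library.

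RPL39 lines the exit tunnel and is among the smallest proteins of the ribosome. Its mRNA had 494 and 504 CPM in CA_IN, 116 and 126 CPM in CA_IP, 531 and 551 CPM in FA_IN, and 164 and 150 CPM in FA_IP. Every immunoprecipitated library lay far below every input library. The mRNA was 4.12-fold lower in CA_IP (log2FC −2.04 ± 0.09 SE, n = 2 against 2, edgeR adjusted p = 5.47e-05) and fell by 1.78 ± 0.09 on the log2 scale in FA_IP (adjusted p = 9.08e-05).

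RPL30, whose protein can bind its own transcript in some eukaryotes, followed with 623 and 675 CPM in CA_IN and 173 and 207 CPM in CA_IP. It had 723 and 730 CPM in FA_IN and 234 and 233 CPM in FA_IP. The groups did not overlap, and the log2FC was −1.77 ± 0.10 in clean air (edgeR, adjusted p = 6.61e-05) and −1.64 ± 0.10 after formaldehyde (adjusted p = 0.000138). RPL30-AS1, an antisense neighbour, held at most 369 counts in a library, and the counting was not stated to use strand.

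RPL38, known for its part in the translation of Hox mRNAs in the mouse, had 532 and 509 CPM in CA_IN and 172 and 186 CPM in CA_IP. In the formaldehyde libraries it had 594 and 556 CPM in input and 212 and 217 CPM after immunoprecipitation. Again no library of one fraction reached the other. Its log2FC was −1.54 ± 0.08 (edgeR, adjusted p = 5.53e-05) and −1.42 ± 0.08 (adjusted p = 0.000138).

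RPL35A, a gene mutated in some patients with Diamond-Blackfan anaemia, had 492 and 525 CPM in CA_IN, 175 and 209 CPM in CA_IP, 553 and 568 CPM in FA_IN, and 215 and 245 CPM in FA_IP. The separation was complete, with a log2FC of −1.41 ± 0.11 (edgeR, adjusted p = 0.000277) and −1.29 ± 0.11 (adjusted p = 0.000525). RPL21 had 890 and 964 CPM in CA_IN, 367 and 420 CPM in CA_IP, 964 and 1033 CPM in FA_IN, and 439 and 501 CPM in FA_IP. Its log2FC was −1.24 ± 0.10 (edgeR, adjusted p = 0.000378) and −1.09 ± 0.10 (adjusted p = 0.000931). RPL23A, RPL29, RPLP1 and RPL32 made up the remaining members beyond 2-fold, with log2FC between −1.19 and −1.05 in clean air.

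Within the P stalk, the flexible arm that recruits translation factors to the ribosome, RPLP1 was called and RPLP0 and RPLP2 were not, all with a log2FC below 0. RPLP1 had 419 and 371 CPM in CA_IN, 188 and 189 CPM in CA_IP, 454 and 460 CPM in FA_IN, and 227 and 223 CPM in FA_IP. It was lower in both treatments, with a log2FC of −1.07 ± 0.08 (edgeR, adjusted p = 0.000285) and −1.02 ± 0.08 (adjusted p = 0.000481). RPLP2, whose protein forms a dimer with that of RPLP1, had 509 and 491 CPM in CA_IN, 368 and 408 CPM in CA_IP, 559 and 520 CPM in FA_IN, and 411 and 438 CPM in FA_IP. Its groups did not overlap either, but the log2FC of −0.36 ± 0.09 and −0.34 ± 0.09 were not called (edgeR, adjusted p = 0.0869 and 0.150). RPLP0, the base of the stalk and the most deeply counted member, had 2422 and 2392 CPM in CA_IN, 1999 and 2191 CPM in CA_IP, 2743 and 2549 CPM in FA_IN, and 2231 and 2301 CPM in FA_IP, with a log2FC of −0.20 ± 0.09 and −0.22 ± 0.09 (adjusted p = 0.375 and 0.433). RPLP0 and RPLP2 were both called lower with the pool as a block. The difference between stalk members was not tested.

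The proteins of RPL5 and RPL11 join the 5S ribosomal RNA before it enters the subunit, and outside the ribosome they bind MDM2 and stabilize p53. RPL5 had 1155 and 1237 CPM in CA_IN, 1255 and 1400 CPM in CA_IP, 1247 and 1382 CPM in FA_IN, and 1447 and 1548 CPM in FA_IP. The immunoprecipitated libraries lay above the input, with a log2FC of 0.15 ± 0.10 and 0.19 ± 0.10 that was not called (edgeR, adjusted p = 0.605 and 0.655). RPL11 had 995 and 1011 CPM in CA_IN, 1033 and 1136 CPM in CA_IP, 1096 and 1096 CPM in FA_IN, and 1011 and 1237 CPM in FA_IP, with a log2FC of 0.11 ± 0.11 and 0.04 ± 0.11 (adjusted p = 0.758 and 0.989).

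Of 8 members whose proteins line the exit tunnel or surround its mouth, a grouping made after the values were seen, 4 were called lower in each treatment (RPL39, RPL23A, RPL26 and RPL31) and 4 were not called (RPL4, RPL17, RPL19 and RPL35). With the pool as a block, RPL17 was called lower as well, making 5 of the 8, and RPL4, with a log2FC of 0.21 and 0.19 in the model without the block, was called higher, in both treatments. RPL26 had 1049 and 1154 CPM in CA_IN, 515 and 646 CPM in CA_IP, 1151 and 1240 CPM in FA_IN, and 590 and 741 CPM in FA_IP. Its log2FC was −0.92 ± 0.14 (edgeR, adjusted p = 0.00949) and −0.84 ± 0.14 (adjusted p = 0.0180). RPL19 had 1194 and 1213 CPM in CA_IN, 1180 and 1376 CPM in CA_IP, 1337 and 1278 CPM in FA_IN, and 1208 and 1409 CPM in FA_IP. Its fractions overlapped in both treatments, with a log2FC of 0.09 ± 0.11 and 0.00 ± 0.11.

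At the other end of the family stood mRNAs of larger proteins. RPL7A, named as the end of the range, had 1375 and 1365 CPM in CA_IN, 1671 and 1873 CPM in CA_IP, 1537 and 1506 CPM in FA_IN, and 1730 and 1948 CPM in FA_IP. Both immunoprecipitated libraries were above both inputs in each treatment, but the log2FC of 0.37 ± 0.09 and 0.27 ± 0.09 was not called (edgeR, adjusted p = 0.104 and 0.345). RPL3, a core protein near the peptidyl transferase centre, had 915 and 890 CPM in CA_IN, 1096 and 1172 CPM in CA_IP, 1026 and 1096 CPM in FA_IN, and 1224 and 1396 CPM in FA_IP, with a log2FC of 0.33 ± 0.09 and 0.30 ± 0.09 (adjusted p = 0.145 and 0.258). Both genes were called higher with the pool as a block.

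The members nearest to 0 were RPL13, RPL36A and RPL10A in clean air, and RPL19, RPL13 and RPL36A after formaldehyde. RPL13 had 737 and 769 CPM in CA_IN, 697 and 811 CPM in CA_IP, 825 and 817 CPM in FA_IN, and 774 and 855 CPM in FA_IP, with the fractions overlapping and a log2FC of 0.00 ± 0.10 and −0.01 ± 0.10. The RPL13 isoform ENST00000563270, which appears among the transcripts listed by the study, held 0.188% of the gene's input count. Its expected counts were 50.4 and 88.2 in CA_IN. Neither CA_IP library held any, and of the formaldehyde libraries only replicate 2 did, with 64.9 in FA_IN and 32.9 in FA_IP. RPL10A had 712 and 735 CPM in CA_IN, 647 and 735 CPM in CA_IP, 792 and 793 CPM in FA_IN, and 671 and 774 CPM in FA_IP. Its log2FC was −0.07 ± 0.10 and −0.13 ± 0.10, neither of which was called.

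RPL10, RPL37A and RPL41, highly expressed as given above, were not alike in the pull-down. RPL10, among the last proteins to join the subunit, had 1648 and 1655 CPM in CA_IN, 1386 and 1558 CPM in CA_IP, 1868 and 1750 CPM in FA_IN, and 1539 and 1630 CPM in FA_IP, with a log2FC of −0.17 ± 0.09 and −0.19 ± 0.09 that was not called (edgeR, adjusted p = 0.519 and 0.588). RPL37A had 951 and 949 CPM in CA_IN, 492 and 585 CPM in CA_IP, 1046 and 985 CPM in FA_IN, and 536 and 599 CPM in FA_IP, and was lower with a log2FC of −0.82 ± 0.10 and −0.84 ± 0.10 (adjusted p = 0.00340 and 0.00365). RPL28, the least expressed, was lower too, with 102 and 83.0 CPM in CA_IN, 63.4 and 62.7 CPM in CA_IP, 114 and 108 CPM in FA_IN, and 69.2 and 75.4 CPM in FA_IP (log2FC −0.55 ± 0.11 and −0.62 ± 0.11, adjusted p = 0.0457 and 0.0293). The members called lower thus came from both ends of the family's range of TPM. RPL28 lost its call in both treatments with scaling to library size, and in clean air also with edgeR on the 4 libraries compared. Leaving out single libraries also removed its call in both treatments, for most of the libraries in clean air. RPLP1, also among the lowest in TPM, kept its call under these settings.

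**Figure D2:**
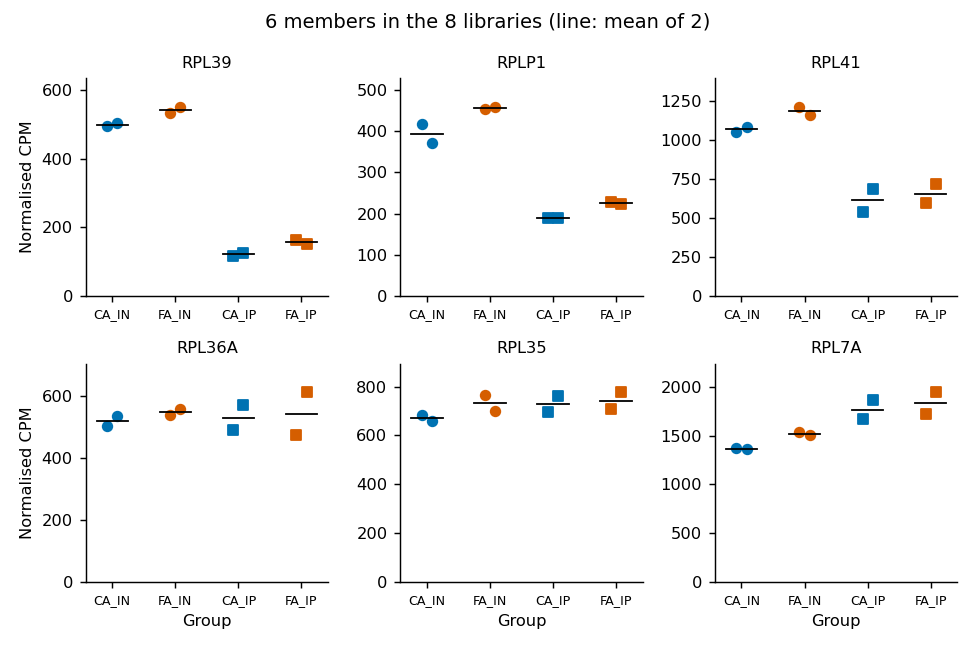
Normalized CPM of RPL39, RPLP1, RPL41, RPL36A, RPL35 and RPL7A in each of the 8 libraries, with circles for input, squares for immunoprecipitated RNA, blue for clean air, orange for formaldehyde and a line at the mean of the 2 libraries. RPL39, RPLP1 and RPL41 are lower in both immunoprecipitated groups, RPL36A and RPL35 show overlapping fractions in at least 1 treatment, and RPL7A lies above its input.

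The lengths of the members, weighted by the isoforms' expected counts in input, ran from 409 to 1823 nt with a median of 742 nt, against 2478 nt for all genes tested. Shorter members tended to have lower ratios. The 22 called members had a median length of 662 nt and the other 23 a median of 915 nt. In clean air the median log2FC was −0.76 in the 5 members under 500 nt, −0.68 in the 18 from 500 up to 750 nt, −0.14 in the 10 from 750 up to 1000 nt and −0.14 in the 12 of 1000 nt and over. After formaldehyde it was −0.77, −0.73, −0.17 and −0.15 in the same classes. All protein-coding genes tested, members included, followed the same direction by class. Their median in clean air was −1.06 for the 70 under 500 nt, −0.30 for the 251 from 500 up to 750 nt, 0.00 for the 459 from 750 up to 1000 nt and 0.04 for the 13055 of 1000 nt and over. The share of those genes called lower in clean air was 45.7%, 30.7%, 11.3% and 0.437% across the classes, and for the members it was 60.0%, 66.7%, 40.0% and 25.0%. Across the 45 members Spearman's rho of log2FC with length was 0.417 in clean air and 0.450 after formaldehyde, and with the length of the most abundant isoform it was 0.513 and 0.540. Over the 13825 protein-coding genes with a GENCODE sequence the rho with length was −0.168 and −0.192. The points of each correlation share libraries and are given as a description.

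Length did not order the shortest members. RPL39, RPL36A, RPL35 and RPL41, the 4 shortest, had weighted lengths of 409, 457, 461 and 483 nt. RPL36A had 502 and 535 CPM in CA_IN, 490 and 571 CPM in CA_IP, 539 and 558 CPM in FA_IN, and 474 and 612 CPM in FA_IP. RPL35 had 683 and 658 CPM in CA_IN, 694 and 760 CPM in CA_IP, 765 and 700 CPM in FA_IN, and 709 and 776 CPM in FA_IP. Neither was called, with a log2FC of 0.03 ± 0.13 and −0.01 ± 0.13 for RPL36A and of 0.12 ± 0.09 and 0.02 ± 0.09 for RPL35, while RPL39 differed 4.12-fold. RPL41, the mRNA of the shortest ribosomal protein, lay between them, with 1051 and 1089 CPM in CA_IN, 541 and 688 CPM in CA_IP, 1216 and 1165 CPM in FA_IN, and 598 and 717 CPM in FA_IP (log2FC −0.80 ± 0.13, edgeR adjusted p = 0.0141, and −0.86 ± 0.13, adjusted p = 0.0109). Among the long members, RPL37, RPL14 and RPL22 had weighted lengths of 1823, 1452 and 1419 nt. RPL37 was lower, with 888 and 908 CPM in CA_IN, 458 and 544 CPM in CA_IP, 971 and 977 CPM in FA_IN, and 516 and 579 CPM in FA_IP (log2FC −0.84 ± 0.10 and −0.83 ± 0.10, adjusted p = 0.00267 and 0.00357), but its most abundant isoform has only 505 nt. RPL14 had 643 and 656 CPM in CA_IN, 668 and 731 CPM in CA_IP, 715 and 721 CPM in FA_IN, and 694 and 800 CPM in FA_IP, with a log2FC of 0.11 ± 0.09 and 0.06 ± 0.09. RPL22 had 448 and 473 CPM in CA_IN, 420 and 457 CPM in CA_IP, 478 and 518 CPM in FA_IN, and 435 and 515 CPM in FA_IP, with a log2FC of −0.07 ± 0.10 and −0.07 ± 0.10. RPL14 and RPL22 were not called and their fractions overlapped in at least 1 treatment.

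The coding sequences of RPL39, RPL41 and RPL35, among the shortest members, are shown from the start codon with every guanine, the base that the lesion modifies, in capitals. They were read from GENCODE 44 on GRCh38, spliced across the coding exons of the named transcript, and stop after 120 bases except for RPL41, which is whole at 78 bases with its stop codon.
RPL39, ENST00000361575, chrX:119786504-119791630, minus strand: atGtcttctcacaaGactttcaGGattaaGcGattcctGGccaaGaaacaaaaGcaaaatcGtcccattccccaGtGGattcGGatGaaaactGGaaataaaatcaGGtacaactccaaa
RPL41, ENST00000501597, chr12:56116590-56117967, plus strand: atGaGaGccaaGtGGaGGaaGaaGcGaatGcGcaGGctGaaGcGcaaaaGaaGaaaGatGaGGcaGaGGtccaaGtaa
RPL35, ENST00000348462, chr9:124857880-124861981, minus strand: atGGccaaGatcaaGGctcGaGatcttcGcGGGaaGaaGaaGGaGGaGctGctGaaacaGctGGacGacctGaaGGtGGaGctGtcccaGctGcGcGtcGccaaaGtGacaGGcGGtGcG

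The printed stretch holds 21 guanines in RPL39 (17.5%), 44 in RPL35 (36.7%) and 28 in RPL41 (35.9%). Over the transcripts of each gene, weighted as for length, guanine made up 20.3% of the bases of RPL39, the lowest of the family, 23.5% of RPL36A, 31.2% of RPL35 and 24.6% of RPL41. Across the 45 members the rho of log2FC with the guanine percentage was 0.453 in clean air and 0.414 after formaldehyde, and with the number of guanines per RNA it was 0.504 and 0.524. Over all 13825 protein-coding genes the rho with guanine percentage was 0.658 and 0.510, and with the number of guanines 0.01 and −0.06. Length and guanine number rise together by construction, so their parts cannot be told apart across 45 members. Of the members' input count, 99.6% came from transcripts whose identifier is in GENCODE 44, but only 57.0% from transcripts of identical length in both annotations, which limits the guanine values.

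**Figure D3:**
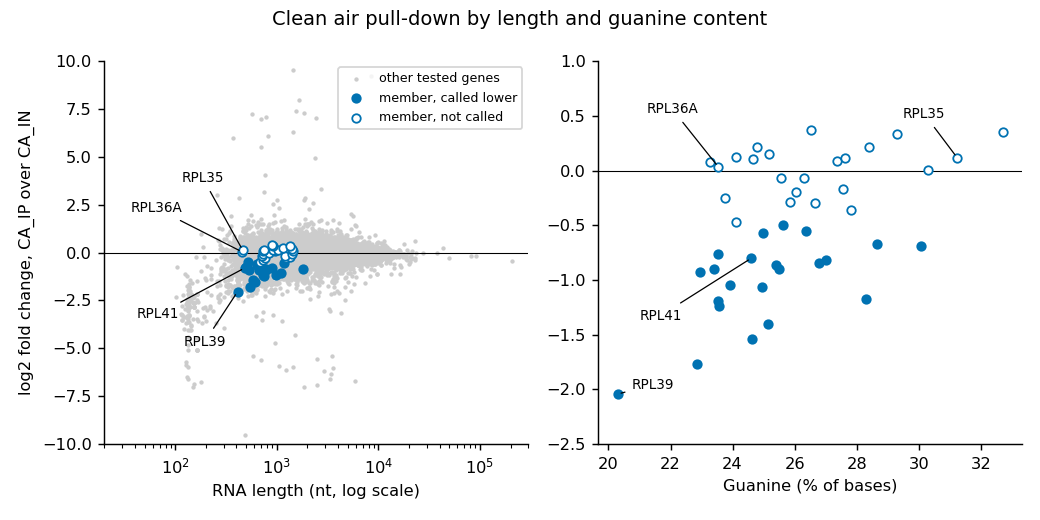
The log2 fold change of CA_IP over CA_IN against the RNA length in nt on a log scale (left, with all other tested genes in grey) and against the guanine percentage (right, members only), with filled points for members called lower. RPL39 is the shortest and most guanine-poor member and lies lowest, while RPL36A and RPL35, of similar length, lie near 0.

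The 22 called members took 1.45% to 1.58% of the input libraries and 0.773% to 0.952% of the immunoprecipitated libraries. The other 23 members took 2.45% to 2.69% of the input and 2.70% to 3.09% after immunoprecipitation. These shares follow from the choice of the 22 by the same comparison and are a description. The RNA around them moved as well: mitochondrially encoded RNA took 13.5% to 14.8% of the input and 9.60% to 11.3% of the immunoprecipitated libraries, and protein-coding genes 70.4% to 73.0% and 79.4% to 81.6%. Whether this had a part in the members' ratios was not tested. As a share of protein-coding genes alone, the members took 5.48% ± 0.184 (SD, n = 2) of CA_IN, 5.88% ± 0.00866 of FA_IN, 4.53% ± 0.395 of CA_IP and 4.86% ± 0.296 of FA_IP.

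**Figure D4:**
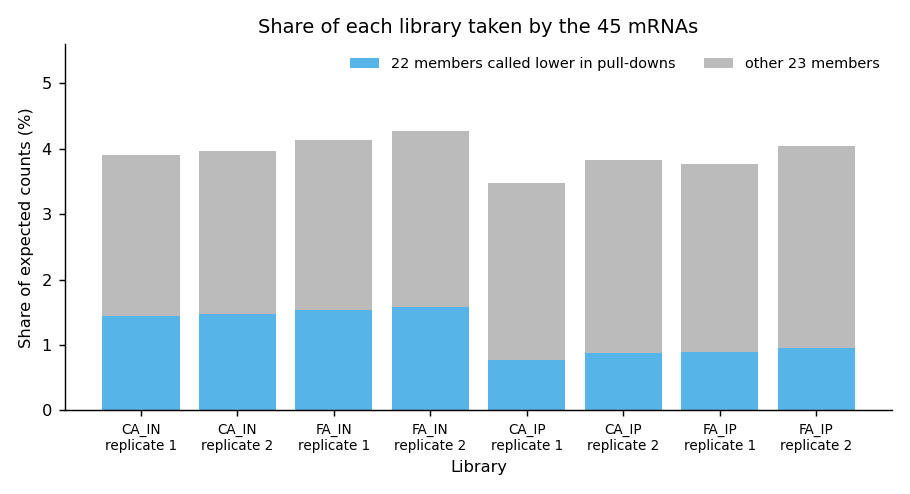
The share of expected counts (%) taken by the 45 mRNAs in each of the 8 libraries, split into the 22 members called lower in the pull-downs (blue) and the other 23 (grey). The blue part is smaller in the 4 immunoprecipitated libraries, the grey part is slightly larger, and the FA_IN bars are the tallest.

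The comparison of FA_IN with CA_IN asks whether formaldehyde changed the amount of these mRNAs after recovery. None of the 45 members was called (edgeR, smallest adjusted p = 0.945), where 0 genes were called higher and 1 of all genes, or 0.00548%, lower. At an unadjusted p under 0.05 there were 3 members, RPL28, RPL3 and RPLP1, among 611 of all genes, and DESeq2 called 0 members as well. The differences were small but all had the same sign. Every one of the 45 log2FC was above 0, as were 53.4% of all genes, with a range of 0.08 to 0.27 and a median of 0.13, against 0.02 for all genes. Both FA_IN libraries lay above both CA_IN libraries for 42 members (18.1% of all genes), and in the other 3 the groups overlapped. Each pool belongs to 1 treatment, so the block for this comparison was the number that the file names of both treatments share. With it 0 members were called in either direction, where 0.0767% of all genes were called higher and 1.34% lower. The members share libraries, so these counts do not add up to independent evidence. In bulk RNA, a change in the number of contributing cells and a change in RNA per cell cannot be told apart.

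RPL28, RPL3 and RPLP1 had the largest differences, with a log2FC of 0.27 ± 0.11, 0.23 ± 0.09 and 0.21 ± 0.08 and an edgeR adjusted p of 0.945 for each. Their values in each library are those given above: in RPL28 the CA_IN libraries stood at 102 and 83.0 CPM and the FA_IN libraries at 114 and 108 CPM. RPL36A had the smallest difference, 0.08 ± 0.13.

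**Figure D5:**
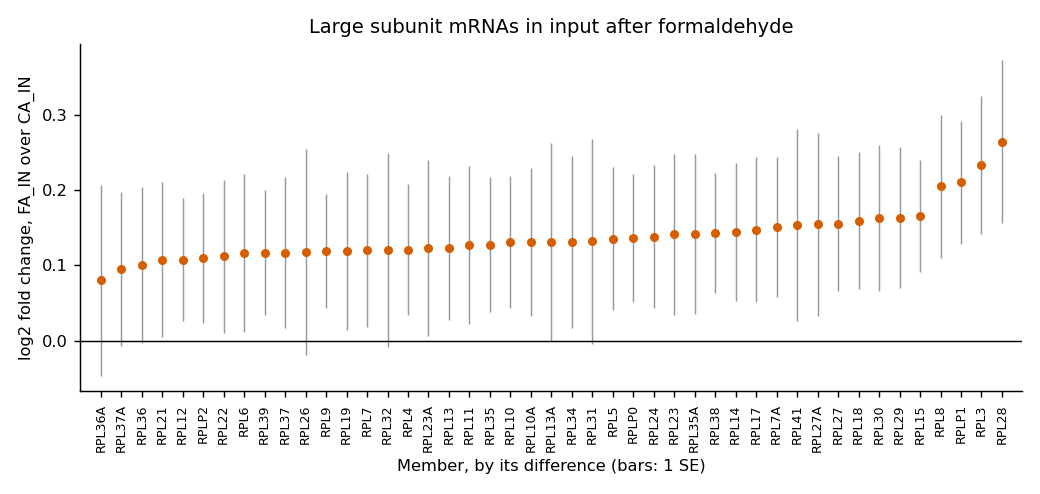
The log2 fold change of FA_IN over CA_IN for each of the 45 members, ordered by size, with bars of 1 standard error. All points lie above 0, between 0.08 for RPL36A and 0.27 for RPL28, and none was called.

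The interaction asks whether the pull-down ratio differed between treatments. None of the 45 members was called (edgeR, adjusted p = 1.00 for all, with 0% of all genes called), and 0 members but 195 of all genes had an unadjusted p under 0.05. With the pool as a block 0 members were called too, with 0.11% of all genes higher and 0.0274% lower. The differences ranged from −0.10 to 0.26 with standard errors of 0.11 to 0.20, and 19 of the 45 were above 0. That number was 6 without CA_IP replicate 1, and 40 without CA_IP replicate 2 or without FA_IP replicate 1. RPL39 had the largest, at 0.26 ± 0.12, followed by RPL21 at 0.15 ± 0.15 and RPL30 at 0.14 ± 0.14. In RPL39 both FA_IP libraries (164 and 150 CPM) were above both CA_IP libraries (116 and 126 CPM), and its input was higher after formaldehyde too.

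The small-subunit proteins, which belong to the same ribosome, gave a similar picture: 15 of 32 were lower in each treatment, 0 were higher, and the median log2FC was −0.42 in both. RPS29 and RPS15A were among those with the lowest adjusted p, with −1.70 ± 0.08 and −1.70 ± 0.09 in clean air. Of the paralogues of large-subunit genes, RPL22L1, a relative of RPL22 with a weighted length of 750 nt, was lower in each treatment, with a log2FC of −1.58 ± 0.13 (edgeR, adjusted p = 0.000349) and −1.28 ± 0.13 (adjusted p = 0.00115), beside −0.07 for the longer RPL22. RPL39L was not called, at −0.50 ± 0.16 and −0.71 ± 0.16, and RPL36AL stood at 0.20 ± 0.10 and 0.11 ± 0.10.

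Of 49 proteins of the mitochondrial large subunit, 4 were lower and 0 higher in clean air, and 5 were lower and 1 higher after formaldehyde. MRPL33, MRPL36 and MRPL52 had a log2FC of −1.13 ± 0.13, −1.22 ± 0.14 and −0.80 ± 0.12 in clean air. Of 46 tested factors that assemble the large subunit, 0 were lower and 1 was higher in clean air, namely BOP1 at 0.47 ± 0.09 (edgeR, adjusted p = 0.0481), and 0 were called after formaldehyde. Their median log2FC was 0.06 and 0.08. A further 18 mRNAs were listed as TOP mRNAs from general knowledge, not by a window match. Of these, 1 was lower in each treatment (BTF3, −0.73 ± 0.10 and −0.70 ± 0.10) and 1 was higher (EEF1D, 0.51 ± 0.09 and 0.44 ± 0.09), with a median of 0.08 and 0.06. In input after formaldehyde 0 genes of these lists were called, and the median log2FC was 0.13 for the small subunit, 0.09 for the mitochondrial large subunit, 0.00 for the assembly factors and 0.11 for the other TOP mRNAs.

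The epithelial label was set beside sets of marker genes, each given as a sum, which does not show the level of each gene. The keratin and adhesion genes KRT5, KRT7, KRT8, KRT17, KRT18, KRT19, EPCAM and CDH1 summed to between 4707 and 5936 CPM in the input libraries, and 1 of the 8, KRT8, was called higher in CA_IP. Mesenchymal markers, VIM and FN1 above all, summed to 1722 to 2000 CPM. Markers of secretory and ciliated airway cells (SCGB1A1, MUC5AC, MUC5B, FOXJ1 and TPPP3) summed to at most 0.391 CPM and those of immune and endothelial cells to at most 9.08 CPM, with 0 of the 5 and 3 of the 6 passing the filter. No marker was called between FA_IN and CA_IN.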

How the data were processed

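RNA of 8 libraries of BEAS-2B cells, 2 in each of CA_IN, FA_IN, CA_IP and FA_IP, was analysed. The authors trimmed the reads with cutadapt, aligned them to GRCh38 with STAR 2.6.0a, where reads at more than 20 places are dropped, and deposited RSEM 1.2.25 expected counts for each transcript of Ensembl 94, with no normalization. The deposited tables also hold TPM, computed by RSEM from the counts and effective lengths. The authors further deposited DESeq2 comparisons with fold changes and p-values, which were not used.

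Expected counts were summed by gene and rounded. Genes with at least 10 counts in at least 2 libraries were tested with edgeR 4.0.16 and limma 3.58.1 in R 4.3.3 (TMM, quasi-likelihood, 1 fit of 4 groups, prior count 0.125), with Benjamini-Hochberg adjustment over all 18242 genes and a limit of 0.05. The biological coefficient of variation was 0.138. Standard errors were calculated as the absolute log2FC divided by the square root of the test's F statistic. They rest on the spread estimated over all 4 groups, not only on the libraries compared. Tables were joined with Python 3.11.15 and pandas 2.3.3. The fit was tested on simulated data. Summed TPM and expected counts of the isoforms gave levels, shares and weighted lengths, with annotation from GENCODE 44 and start windows from RefSeq (GRCh38.p14).

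The members, lists and named genes were chosen with earlier results of these data known. All 45 members were counted. Values in every library were given for the members with the highest and lowest TPM, the longest and shortest, those with the largest and smallest changes, the stalk and 5S proteins and RPL13. Of each other list at most 3 genes with the lowest adjusted p were named, and any gene outside this rule is named as the end of a range, a neighbour of the limit or a paralogue, after its values were seen.

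The titles give no replicate numbers, so replicates are numbered in the order of their records. The methods state that input and immunoprecipitated RNA came from 1 pool, and the files of both fractions carry matching numbers. Deviations from the group means correlated with r = 0.380 for the CA pairs and 0.246 for the FA pairs over 18242 genes, and CA_IN and FA_IN libraries with the same number in their file names correlated with r = 0.283. The pool was the replicate block for the pull-downs and the interaction, and the file name number for FA_IN against CA_IN. Alternatives were DESeq2 1.42.0 on 8 or 4 libraries, edgeR on 4 libraries, scaling by library size, leaving out the filter, a filter on mean counts under 50, the replicate block, protein-coding transcripts only, pseudogenes added, and each library left out. Some genes and sequences of the lists are not reported here.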

Additional observations from a re-analysis of the deposited data

How the results depend on the processing

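The members called lower kept their direction under all 17 alternatives in each pull-down comparison. Under every alternative RPL39, RPL30, RPL38, RPL35A, RPL21, RPL23A, RPL29, RPLP1, RPL9 and RPL12 were called lower in both treatments, and RPL32, RPL37 and RPL37A in clean air, 13 and 10 members in all. Leaving out a library gave 13 to 21 lower members in clean air and 10 to 22 after formaldehyde. Without CA_IP replicate 1 the clean air count was 13, and the formaldehyde count was 10 without FA_IN replicate 1 and 13 without FA_IP replicate 1. Where a library was left out, its group had 1 library, assumed to vary like the others. The number called higher, 0 as reported above, was 5 in each treatment with the replicate block, 4 and 3 with library size, and in clean air 2 with no filter and 1 with DESeq2 on 8 libraries. In input and for the interaction 0 members were called under any alternative, and the replicate block changed no call there, with a smallest adjusted p of 0.117 in input. All 45 members stayed above 0 in input under all 17 alternatives, with medians of 0.09 to 0.15.

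Members near 0, never called under any of these alternatives, changed sign with small shifts. In clean air RPL13 became −0.0148 with DESeq2 on 8 libraries, −0.0299 with DESeq2 on 4, −0.00178 with edgeR on 4 libraries, −0.0334 with no filter, −0.0328 with a mean count of 50, −0.00244 with the replicate block and −0.0662 with protein-coding transcripts, and RPL36A became −0.00309 with no filter, −0.00278 with a mean count of 50 and −0.00468 with protein-coding transcripts. After formaldehyde RPL19 became −0.00723 with DESeq2 on 8 libraries, −0.00154 with DESeq2 on 4, −0.00364 with edgeR on 4 libraries, −0.0115 with no filter, −0.00103 with a mean count of 50, −0.00241 with the replicate block and −0.00367 with protein-coding transcripts. Library size turned RPL10A to 0.0790 and RPL22 to 0.0763 in clean air, and RPL10A to 0.0353, RPL13 to 0.158, RPL22 to 0.100 and RPL36A to 0.154 after formaldehyde. Leaving out a library moved the log2FC in clean air between −0.162 and 0.0228 for RPL10A, −0.112 and 0.107 for RPL13, −0.0283 and 0.194 for RPL19, and −0.0827 and 0.138 for RPL36A. After formaldehyde it moved between −0.0971 and 0.174 for RPL11, −0.0660 and 0.0583 for RPL13, −0.0294 and 0.156 for RPL14, −0.0950 and 0.108 for RPL19, −0.175 and 0.0480 for RPL22, −0.0274 and 0.0947 for RPL35, and −0.190 and 0.159 for RPL36A. The cause of these shifts was not tested.

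The members' mean share of the library was 3.47% in CA_IN, 3.72% in FA_IN, 3.15% in CA_IP and 3.40% in FA_IP with protein-coding transcripts only, and 5.48%, 5.88%, 4.53% and 4.86% with protein-coding genes as the total, by the construction of these alternatives. Of the other values of named members, 27 lost and 12 gained a call under an alternative and 828 kept direction and side. With 2 libraries a group, the spread is estimated over all groups and small differences cannot be resolved. Shared reads were divided among isoforms, pseudogenes and genes by an estimate, and reads at many places were dropped before counting.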

Other observations

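The members' reads fell mostly, but not wholly, on coding isoforms. Of the 491 member transcripts in the files, 479 held counts. Isoforms not typed as protein-coding in GENCODE 44 took 11.2% to 11.8% of the members' expected counts in the input libraries. In the immunoprecipitated libraries they took 12.6% to 13.6%, without overlap. Besides isoforms without a defined coding sequence, this share includes nonsense-mediated decay and non-stop decay isoforms and transcripts absent from GENCODE 44. Retained-intron isoforms took 6.42% to 6.78% and 7.97% to 8.60%. RPL4, RPL14 and RPL37 were the 3 members with over 50% of their count, summed over all 8 libraries, on isoforms not typed as protein-coding. The median member had 3.47%. In the model without the block, RPL37 was called lower in both pull-downs, while RPL4 and RPL14 were not called. The shares by isoform type pool the counts of all members, so they also change with the mix of members in a library. Whether isoforms shifted within a gene was not tested.

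Ribosomal protein genes have many processed pseudogenes. Of the 1083 found for the members, 665 held counts, but the median member had only 0.347% of its joint count on them. RPL23A, at 9.03%, was the only member over 5%, and its ratio was lower with and without its pseudogenes.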
